A study of Mus musculus with 7 samples.

Results

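Vessel growth factors and the cadherin of endothelial junctions were followed in mouse soleus, a postural calf muscle rich in slow fibres. The group comprises 7 of the 203 genes named on the array, namely 4 ligands of the vascular endothelial growth factor family, Vegfa, Vegfb, Vegfc and Pgf, the angiopoietin Angpt2, angiogenin (Ang) and VE-cadherin (Cdh5). They were chosen by gene symbol, and 1 spot on the array carried each symbol. The study measured soleus of wild-type mice of the 129/SV strain kept as cage controls, in 7 samples with 1 array each. All 7 samples form 1 group, with no other genotype and no treatment, so there is no contrast between conditions. The age of the mice is not stated in the labels. The titles carry the code C15 for 6 samples and C16 for replicate 5, with no meaning given. The labels do not say whether each sample came from a separate animal. The p-values below therefore refer only to how values pair up over these 7 samples, and differences between the samples may be partly technical.

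As background, growing and resting capillaries depend on ligands that muscle fibres and other cells release and that endothelial cells read through receptor tyrosine kinases. VEGF-A acts mainly through the receptor Kdr and is a target of hypoxia-inducible factors. VEGF-B and placental growth factor (Pgf) bind Flt1, and VEGF-C binds Flt4 and drives growth of lymphatic vessels. Angiopoietin 2 is a context-dependent antagonist of the receptor Tek and is released largely by endothelial cells, angiogenin is a secreted ribonuclease, and VE-cadherin joins endothelial cells to each other and marks them. Slow oxidative muscle is known for its dense capillary bed.

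Each spot was expressed in percent of its array's summed signal. That sum leaves out the 28S ribosomal RNA spot and an unnamed spot, and without them every column added up to between 99.9% and 100.02%. Targets were made by reverse transcription from primers specific to each gene, with radioactive dATP, so primer and probe influence each reading, and a difference in signal between spots of different genes is not a difference in transcript level. The files hold no background reading, so each gene was compared with the floor of its own array, the 10th percentile of its 223 spots. The floor was 0.13% in replicate 1, 0.06% in replicate 2, 0.05% in replicate 3, 0.03% in replicate 4, 0.02% in replicate 5, 0.06% in replicate 6 and 0.09% in replicate 7. The array medians lay between 0.06% and 0.20%. A gene was called above the floor where it exceeded 2 times that value on every array. A signal near the floor does not show that a transcript was missing. The samples carried clear muscle signal, with 7 of 7 measured fibre markers above the floor and a summed signal of 22.3% to 30.3%. Of all 203 genes, 44 (21.7%) were above the floor.

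The promoter sequences of Vegfa, Vegfb and Ang show how differently composed the start regions of these ligands are. They are the 250 bases before the start of transcription from RefSeq, build GRCm38.p6, written 5′ to 3′ on the strand of the gene. Vegfa lies at chr17:46032378-46032627 on the minus strand, Vegfb at chr19:6987652-6987901 on the minus strand and Ang at chr14:51090827-51091076 on the plus strand. Capitals mark the GC box GGGCGG and the core of the hypoxia response element ACGTG, searched on both strands together with the TATA box TATAAA. Matches of different motifs could overlap.
Vegfa: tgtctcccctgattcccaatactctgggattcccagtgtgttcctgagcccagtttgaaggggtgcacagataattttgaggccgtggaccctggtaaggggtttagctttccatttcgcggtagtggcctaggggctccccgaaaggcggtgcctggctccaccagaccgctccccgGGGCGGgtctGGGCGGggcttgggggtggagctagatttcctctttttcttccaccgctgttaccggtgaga
Vegfb: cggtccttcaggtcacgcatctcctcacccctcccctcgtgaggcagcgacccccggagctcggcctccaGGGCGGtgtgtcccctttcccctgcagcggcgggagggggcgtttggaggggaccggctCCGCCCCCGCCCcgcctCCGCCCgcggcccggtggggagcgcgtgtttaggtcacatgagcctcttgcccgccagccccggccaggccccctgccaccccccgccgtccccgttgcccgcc
Ang: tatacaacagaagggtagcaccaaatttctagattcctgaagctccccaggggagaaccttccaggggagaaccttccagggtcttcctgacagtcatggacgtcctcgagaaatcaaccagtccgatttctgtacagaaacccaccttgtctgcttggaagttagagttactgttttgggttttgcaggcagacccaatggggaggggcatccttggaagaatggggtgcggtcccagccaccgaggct
The Vegfb window held 4 GC boxes at a GC content of 76.4%. The Vegfa window held 2 at 59.2%, and the Ang window held 0 at 52.4%, equal to the median of all windows, 52.4%. Of the 32851 promoter windows in the table, 32.7% held a GC box, 16.6% the hypoxia core and 12.4% the TATA box. None of the 3 windows held the hypoxia core or the TATA box in these letters, which says nothing about the factors that bind there. The windows of Vegfc and of the first start of Pgf held 2 GC boxes each, at 71.6% and 68.4% GC. A second Vegfa start, not printed, had 1 hypoxia core and 1 GC box at 59.6% GC, and a second Pgf start had 0 of either at 66.4%. The second Vegfa window, chr17:46025164-46025413, lies downstream of the first, and a match of letters there does not show a working hypoxia element. No window was matched for Angpt2 and Cdh5.

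Cdh5 was the only one of the 7 genes above the floor on all arrays, against 44 of all 203 genes (21.7%). Its signal was 0.30%, 0.19%, 0.11%, 0.12%, 0.21%, 0.26% and 0.27% in replicates 1 to 7, with a mean of 0.209% ± 0.0738 (SD, n = 7). Relative to its array, Cdh5 stood at 2.20 times the floor in replicate 3 and 2.31 times in replicate 1, the lowest values, and at 10.5 times in replicate 5, the highest. The median was 3.17 times. In replicate 3 the call is within the rounding of the deposited values, since a rounding of 0.005 percentage points in both numbers allows 1.91 to 2.56 times the floor.

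Vegfb was the steadiest ligand of the family in the deposited values. It read 0.23%, 0.23%, 0.26%, 0.23%, 0.18%, 0.19% and 0.20% in replicates 1 to 7, a mean of 0.217% ± 0.0281 (SD, n = 7). The highest sample was only 1.44 times the lowest, against a median of 3.83 times over all 203 genes. Its coefficient of variation, 12.9%, was the 7th smallest of the 203 genes, whose median was 49.0%. Vegfb exceeded 2 times the floor on 6 arrays, with 1.77 times in replicate 1 as the exception and 9 times in replicate 5 as the highest value. Without replicate 1, Vegfb counts as above the floor on all remaining arrays.

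Vegfa, the ligand of Kdr, exceeded 2 times the floor on 2 arrays. It read 0.14%, 0.11%, 0.09%, 0.09%, 0.06%, 0.10% and 0.13% in replicates 1 to 7. This corresponds to 1.08 times the floor in replicate 1, the highest floor, and to 3 times in replicates 4 and 5, the lowest floors. Replicates 4 and 5 were the arrays that exceeded it, and the median was 1.80 times.

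Vegfc and Pgf did not exceed 2 times the floor on any array. Vegfc, the lymphatic ligand, read 0.12%, 0.07%, 0.06%, 0.05%, 0.03%, 0.07% and 0.11% in replicates 1 to 7, from 0.923 to 1.67 times the floor. Pgf read 0.14%, 0.06%, 0.05%, 0.03%, 0.02%, 0.06% and 0.08%, and equalled the floor on 5 of the 7 arrays. Its whole range was 0.889 to 1.08 times the floor. Pgf thus lay at the low end of every array.

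Angpt2 and Ang split the samples. Angpt2 read 0.21%, 0.17%, 0.09%, 0.09%, 0.29%, 0.31% and 0.45% in replicates 1 to 7, so replicates 5, 6 and 7 were high and replicates 3 and 4 low. It exceeded 2 times the floor on 5 arrays and missed it in replicates 1 and 3, with 1.62 and 1.80 times. Ang read 0.17%, 0.09%, 0.06%, 0.05%, 0.15%, 0.12% and 0.38%, highest in replicate 7 and lowest in replicate 4. It exceeded 2 times the floor in replicates 5 and 7, at 7.50 and 4.22 times, and stood at exactly 2 times in replicate 6. Their highest samples were 5 and 7.6 times their lowest.

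**Figure D1:**
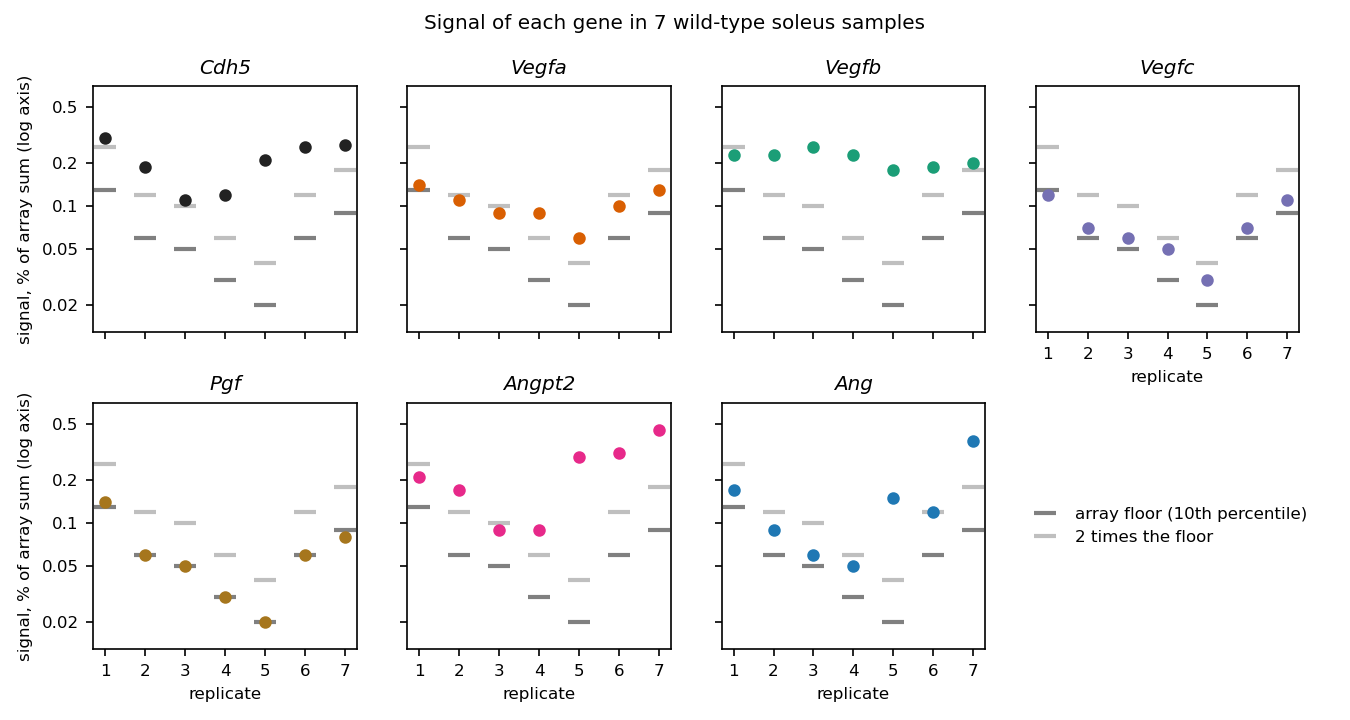
Signal of each gene (points) as a percent of the array sum on a log axis, in replicates 1 to 7, with the floor of each array (dark bars, 10th percentile of the spots) and 2 times the floor (light bars). Cdh5 lies over the light bar on all 7 arrays, Vegfb on 6, Angpt2 on 5, Ang and Vegfa on 2, and Vegfc and Pgf on 0.

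**Figure D2:**
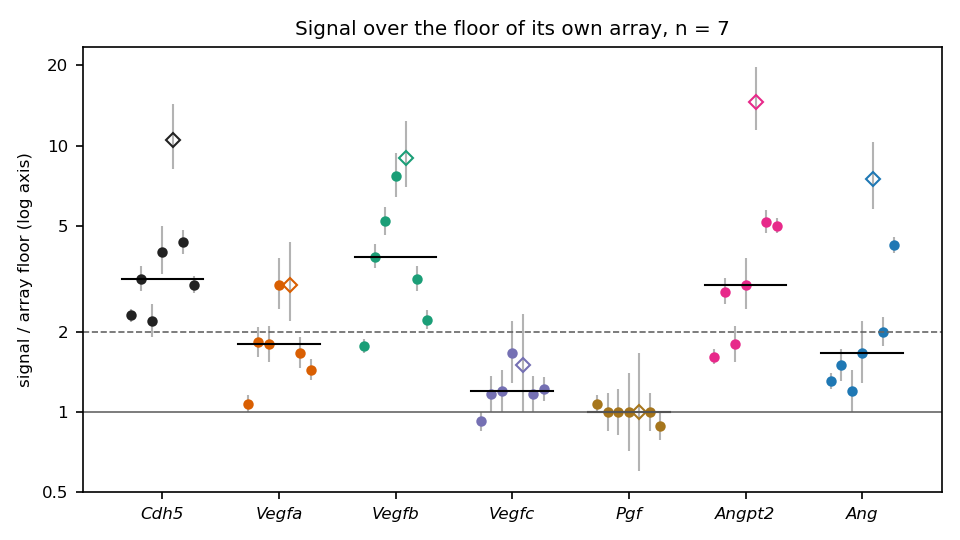
Signal over the floor of the same array on a log axis, 7 points per gene in order of replicate, with the median (black line), the range that rounding of the deposited values allows (grey lines) and replicate 5 as an open diamond. The solid line marks the floor and the dashed line 2 times the floor. Pgf lies on the floor, and Cdh5, Vegfb, Angpt2 and Ang reach their highest ratio in replicate 5, the array with the lowest floor.

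Vegfa, Vegfc and Pgf varied together with the floor. Between the log2 deposited value and the log2 floor over the 7 arrays, r was 0.982 for Vegfc (exact permutation p = 0.000397 and adjusted p = 0.00269; rho = 1 with p = 0.000397) and 0.955 for Vegfa (exact permutation p = 0.000794 and adjusted p = 0.00343; rho = 0.982 with p = 0.000794). Without replicates 1 and 5, whose floors lay farthest from the median, r was 0.948 and 0.862. For Pgf, which equalled the floor on 5 arrays, r was 0.996 and restates that. Adjustment by Benjamini-Hochberg ran over all 203 genes, of which 142 (70%) passed, all with a positive r, so the 3 ligands did what most genes on the array did. The other 4 genes did not pass. For Cdh5 r was 0.551 (adjusted exact permutation p = 0.235; rho = 0.721 with p = 0.0770) and for Ang 0.465 (adjusted exact permutation p = 0.340; rho = 0.595 with p = 0.170). For Vegfb it was 0.281 (adjusted exact permutation p = 0.585; rho = 0.168 with p = 0.723) and for Angpt2 0.276 (adjusted exact permutation p = 0.590; rho = 0.4 with p = 0.369). Without replicates 1 and 5 these r were 0.789, 0.891, -0.496 and 0.849. The part of the floor in the spread of Vegfa, Vegfc and Pgf between samples was not tested.

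Because floors differed, spreads and relations between genes were taken after quantile normalization, which puts 1 common set of values on all arrays, on the log2 scale. On that scale Angpt2 and Ang had the 6th and 7th largest SD of the 203 genes, 0.70 and 0.66 against a median of 0.25. Vegfb had an SD of 0.55, the 15th largest, whereas its SD in deposited log2 values was 0.19, among the smallest at rank 199 of 203. Pgf showed the reverse, with 0.09 after normalization (rank 197) and 0.92 as deposited (rank 31). Cdh5 had an SD of 0.26 after normalization and 0.57 as deposited. Vegfa had 0.33 and 0.41, and Vegfc 0.20 and 0.68. The signal of the 28S spot differed between arrays, from 3.88% in replicate 3 to 21.6% in replicate 2. For Vegfb, r with it was -0.832 (exact permutation p = 0.0476 and adjusted p = 0.309; rho = -0.797 with p = 0.0571), and -0.423 without the 2 samples farthest from its median. For Cdh5 r was 0.688 (exact permutation p = 0.0952 and adjusted p = 0.416; rho = 0.603 with p = 0.171), and -0.486 without them. For Vegfa, Vegfc, Angpt2, Ang and Pgf, r with the 28S spot was -0.669, -0.662, 0.499, 0.441 and -0.0312, and none passed after adjustment. Without the same 2 samples it was -0.336, -0.0981, -0.392, -0.391 and 0.0328. The part of the 28S spot in the values of any of these genes was not tested. Angpt2 and Ang were variable on either scale, with 0.89 and 0.99 as deposited.

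**Figure D3:**
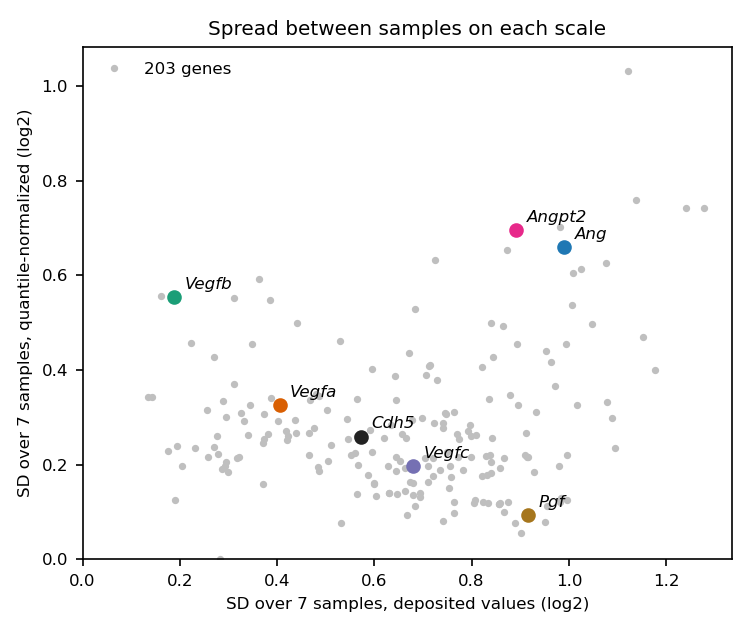
SD over the 7 samples in deposited log2 values (horizontal) and after quantile normalization (vertical), 1 grey point per gene for all 203 genes, with the 7 described genes in colour. Vegfb lies at 0.19 and 0.55, Pgf at 0.92 and 0.09, and Angpt2 and Ang are high on both axes.

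No ligand was related to Cdh5 past the threshold. Cdh5 was set against the 201 other genes that varied on this scale, with an exact permutation test that enumerated every pairing of samples, and 0 of 201 (0%) passed after adjustment. At an unadjusted p under 0.05, 5 genes (2.49%) did, and no ligand was among them. Angpt2 had the highest r of the ligands, 0.611 (exact permutation p = 0.159 and adjusted p = 0.889; rho = 0.378 with p = 0.406), and 0.183 without replicates 5 and 6, the samples farthest from the median of Cdh5. Ang followed at 0.431 (exact permutation p = 0.318 and adjusted p = 0.892; rho = 0.505 with p = 0.258), and 0.238 without these 2 samples. These values depend on which samples are left out. Without replicates 5 and 7, the samples farthest from the median of the ligand, r was 0.723 for Angpt2 and 0.833 for Ang.

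The VEGF ligands pointed the other way on this scale or had no slope, and none passed. Vegfc had r = -0.562 (exact permutation p = 0.187 and adjusted p = 0.889; rho = -0.642 with p = 0.128), Vegfb r = -0.525 (exact permutation p = 0.228 and adjusted p = 0.889; rho = -0.667 with p = 0.117) and Vegfa r = -0.339 (exact permutation p = 0.476 and adjusted p = 0.962; rho = -0.631 with p = 0.141). Without replicates 5 and 6 these were -0.849, -0.916 and -0.888. Without the 2 samples farthest from the median of the ligand they were -0.738, -0.320 and -0.896. For Pgf r was 2.87e-05 (exact permutation p = 1; rho = 0.0477 with p = 0.962), and 0.0831 without replicates 5 and 6, but 0.743 without replicates 1 and 3, farthest from the median of Pgf.

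**Figure D4:**
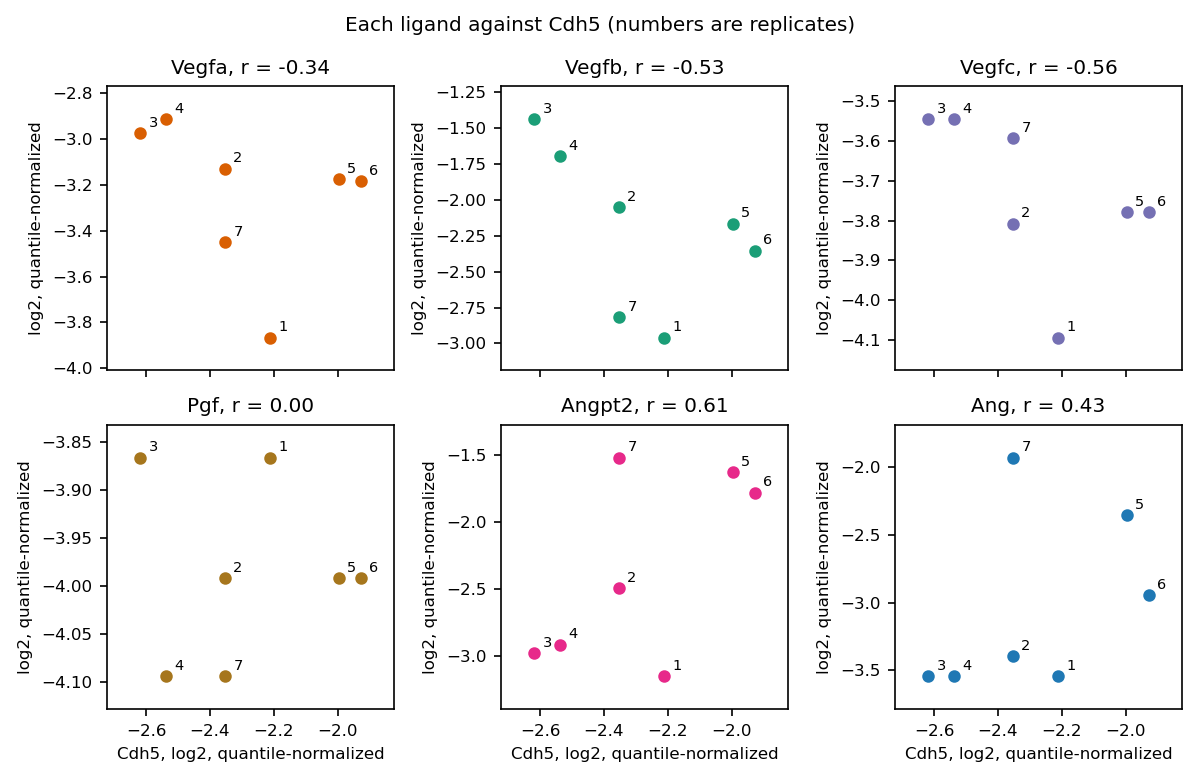
Quantile-normalized log2 signal of each ligand (vertical) against that of Cdh5 (horizontal) in the 7 samples, numbered by replicate. Replicates 3 and 4 have the lowest Cdh5 together with the highest Vegfb and low Angpt2 and Ang.

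The direction for Angpt2 and Ang held under all 6 other scalings of Pearson's r, and that of the VEGF ligands did not. These were not 6 separate checks. Raising low values to the floor left r of Angpt2 and Ang with Cdh5 unchanged. Scaling to the sum of named spots nearly repeated the deposited values, with r = 0.877 and 0.843. For Angpt2, r with Cdh5 was 0.876 in deposited log2 values (exact permutation p = 0.0139 and adjusted p = 0.194) and 0.924 after division by the array floor (exact permutation p = 0.00556 and adjusted p = 0.0558). Ang gave 0.840 and 0.796 (adjusted exact permutation p = 0.194 and 0.0945). On those scales 44 (21.8%) and 91 (45%) of 202 genes were under an unadjusted p of 0.05. Values divided by the same floor share that factor. For Vegfa, r was 0.451 as deposited and 0.718 over the floor. For Vegfb it was -0.602 and 0.642.

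**Figure D5:**
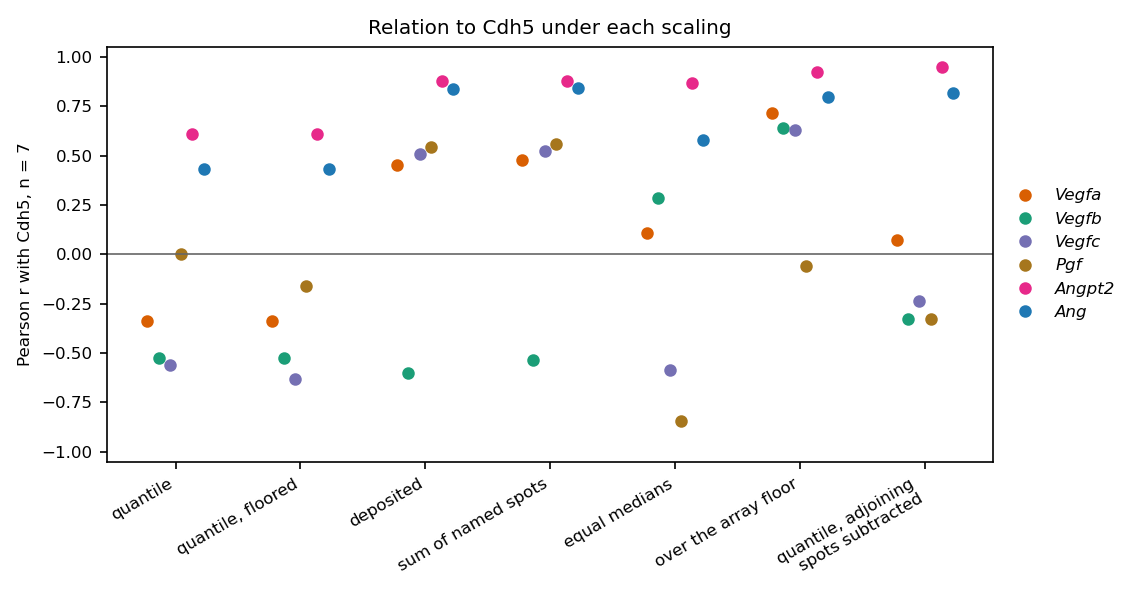
Pearson r of each ligand with Cdh5 over the 7 samples under each of 7 scalings of the values. Angpt2 and Ang are above 0 under every scaling, between 0.431 and 0.951, while Vegfa, Vegfb, Vegfc and Pgf lie on either side of 0.

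Among the 7 genes themselves, 3 pairs of ligands had high r, and none passed after adjustment over all 20301 pairs of genes, where 0 pairs (0%) passed. The smallest exact permutation p found was 0.000198, the smallest that 7 samples allow. Over so many pairs, no pair could pass alone at that p, however high its r. The 0 therefore does not show a lack of relation. At an unadjusted p under 0.05, 3 of the 21 pairs among the 7 genes were found, against 2296 of all pairs (11.3%). Angpt2 and Ang gave r = 0.919 (exact permutation p = 0.00119 and adjusted p = 0.318; rho = 0.964 with p = 0.00238), and 0.972 without replicates 5 and 7. Across the 6 other scalings their r lay between 0.870 and 0.931. Vegfa and Vegfb gave r = 0.910 (exact permutation p = 0.00298 and adjusted p = 0.318; rho = 0.964 with p = 0.00278), and 0.894 without replicates 1 and 7, but 0.336 in deposited values. Vegfa and Vegfc gave r = 0.770 (exact permutation p = 0.0452 and adjusted p = 0.426; rho = 0.655 with p = 0.129), and 0.951 without replicates 1 and 7. That r was 0.250 without replicate 1 alone. The remaining pair of the 3, Vegfb and Vegfc, gave r = 0.648 (exact permutation p = 0.103 and adjusted p = 0.514), and 0.0327 without replicates 1 and 3. In deposited values it was 0.280.

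In deposited log2 values 6 of the 21 pairs passed after adjustment, beside 9466 of 20503 pairs (46.2%). They were the 3 pairs among Vegfa, Vegfc and Pgf, and the 3 among Angpt2, Ang and Cdh5. Adjusted over the genes set against Cdh5 instead, as above, neither Angpt2 nor Ang passed with Cdh5 in deposited values. The verdict on these pairs thus depends on the set of tests adjusted over. Over the array floor, 2 pairs passed, Vegfa with Vegfb and Angpt2 with Ang, beside 1649 of 20503 pairs (8.04%), a share near that of the 21 pairs. Scaled to the sum of the named spots, the same 6 pairs passed beside 47.6% of all pairs. All genes of a sample share its array.

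The spots of Vegfa, Vegfb and Vegfc carry the successive labels 6E, 6F and 6G. Spots were taken as adjoining by the number and letter of their labels, and no source used here says that these give positions on the array. On the quantile-normalized scale, r of a gene with the median deviation of its adjoining spots, described genes left out, was 0.817 for Vegfa (adjusted exact permutation p = 0.0965; rho = 0.631 with p = 0.143), 0.845 for Vegfb (adjusted exact permutation p = 0.0583; rho = 0.857 with p = 0.0238) and 0.878 for Vegfc (adjusted exact permutation p = 0.0915; rho = 0.546 with p = 0.221). It was 0.864 for Ang (adjusted exact permutation p = 0.0618; rho = 0.927 with p = 0.00952), 0.605 for Angpt2 (adjusted exact permutation p = 0.210; rho = 0.714 with p = 0.0881), 0.231 for Cdh5 (adjusted exact permutation p = 0.786; rho = 0.450 with p = 0.318) and -0.0610 for Pgf (adjusted exact permutation p = 0.958; rho = 0.0945 with p = 0.876). Leaving out the 2 samples farthest from the median of the adjoining spots gave 0.270, 0.922 and 0.468 for the 3 VEGF ligands. For Ang, Angpt2, Cdh5 and Pgf it gave 0.646, 0.0771, 0.427 and 0.555. Of 196 genes, 16 (8.16%) passed, and 74 (37.8%) had an unadjusted p under 0.05. With the adjoining spots subtracted, r was 0.814 between Vegfa and Vegfb, 0.895 between Angpt2 and Ang, and 0.951 between Angpt2 and Cdh5.

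By r on the quantile-normalized scale, the gene most like Ang was Ang2, a related ribonuclease of the angiogenin family on the spot labelled 3F, next in order to 3E of Ang, with r = 0.973 over 7 samples (exact permutation p = 0.00119 and adjusted p = 0.318; rho = 0.972 with p = 0.00119), and 0.926 without replicates 5 and 7. Ang2 read 0.19%, 0.10%, 0.06%, 0.05%, 0.10%, 0.12% and 0.26% in replicates 1 to 7, highest in replicate 7 and lowest in replicate 4 as Ang was. The genes of this family have similar sequences, and how far the primers and probes of Ang and Ang2 keep them apart is not stated in the labels. Ang2 was also the gene most like Angpt2 (r = 0.931, exact permutation p = 0.00317 and adjusted p = 0.318; rho = 0.883 with p = 0.0151), and r was 0.882 without replicates 5 and 7.

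For Vegfb the most alike gene was Cited2, a transcriptional coregulator that competes with hypoxia-inducible factors for their coactivators. Their r was 0.986 (exact permutation p = 0.000397 and adjusted p = 0.318; rho = 0.964 with p = 0.00278), 0.989 without replicates 1 and 3, and 0.849 in deposited values. Cited2 had a mean of 0.186% ± 0.0276 (SD, n = 7). For Cdh5 the 3 most alike genes were the cell cycle regulator Rb1 (r = 0.941, exact permutation p = 0.00397 and adjusted p = 0.798; rho = 0.945 with p = 0.00397), the topoisomerase Top3a (r = 0.846, exact permutation p = 0.0246 and adjusted p = 0.831; rho = 0.882 with p = 0.0147) and the cyclin Ccna1 (r = 0.790, exact permutation p = 0.0417 and adjusted p = 0.831; rho = 0.685 with p = 0.1). Without replicates 5 and 6 these were 0.965, 0.909 and 0.839. The lowest r was that of the oxidase subunit Cox6a2, -0.778 (exact permutation p = 0.0714 and adjusted p = 0.831; rho = -0.809 with p = 0.0476), and -0.935 without these 2 samples. The adjusted p of genes set against Cdh5 is over 201 genes. That of the other genes in this paragraph is over all 20301 pairs. Over all pairs, the adjusted exact permutation p was 0.318 for Rb1, 0.381 for Top3a, 0.426 for Ccna1 and 0.475 for Cox6a2. Rb1 exceeded 2 times the floor on 2 arrays and Top3a on 1. For Vegfa, Vegfc and Pgf the most alike genes were Lama2, Thbs3 and Mmp10, which exceeded 2 times the floor on 0 arrays each. Their r was 0.949, 0.949 and 0.876 (exact permutation p = 0.0238, 0.00238 and 0.0333; adjusted p = 0.376, 0.318 and 0.405; rho = 0.802, 0.962 and 0.75). Without the 2 samples farthest from the median of the ligand, r was 0.870 for Vegfc and 0.167 for Pgf. For Vegfa it could not be computed, because Lama2 did not vary over the remaining samples.

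None of the measured receptors of these ligands lay above the floor on all arrays, beside 44 of all 203 genes (21.7%). With only 4 receptors measured, 0 is near that share. Of the 4 measured, Kdr exceeded 2 times the floor on 5 arrays, Flt1 on 1, and Flt4 and Tek on 0. Kdr, the main receptor of VEGF-A, averaged 0.136% ± 0.0399 (SD, n = 7), from 1.31 times the floor in replicate 1 to 5 times in replicate 5. Among 12 other ligands of vessel growth, 0 lay above the floor on all arrays, beside the same 21.7% of all genes. Vegfd, a further VEGF ligand of Flt4, exceeded it on 6 arrays and stood at exactly 2 times in replicate 3, with a mean of 0.194% ± 0.0931. Angpt1, the activating ligand of Tek, exceeded it on 1 array and Angpt4 on 0.

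Over all 40 measured genes of the vessel lists, 1 lay above the floor on all arrays, 3 on 6 arrays and 20 on 0, beside 44, 11 and 74 of all 203 genes. The 1 gene was Timp2, an inhibitor of matrix proteases, with a mean of 0.189% ± 0.0527 (SD, n = 7). None of the 3 oxygen sensing genes, the 6 genes of vascular tone or the 4 of endothelial adhesion was above it, and among the latter Pecam1, a junctional protein of endothelial cells, was on 6 arrays at 0.169% ± 0.0731. Between these 40 genes and Cdh5, r was positive for 18 with a median of -0.02. Over the 201 genes tested it was positive for 84 with a median of -0.11, a share near that of the 40. An unadjusted exact permutation p under 0.05 was found for 0 of the 40, beside 5 of the 201.

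No other marker of endothelial cells was related to Cdh5 past the threshold. Of the 8 measured, Cdh5 and Fabp4 were above the floor on all arrays, beside 44 of all 203 genes (21.7%). Cd34 and Pecam1 exceeded 2 times the floor on 6 arrays, Kdr on 5, Flt1 on 1, and Tek and Nos3 on 0. Fabp4 carries fatty acids in capillary endothelium and in adipocytes. For Pecam1, r with Cdh5 was 0.272 (exact permutation p = 0.594; rho = 0.564 with p = 0.196), and 0.298 without replicates 5 and 6. For Kdr it was -0.485 (exact permutation p = 0.272; rho = -0.667 with p = 0.117), and -0.846 without these samples. The other 5 lay between -0.244 and 0.277, and the smallest adjusted exact permutation p among the 7 was 0.892. The summed signal of the 8 markers ran from 1.01% to 1.92%. In a whole muscle, fewer endothelial cells and less RNA per cell cannot be told apart. Markers of other cell types were few on the array. The leukocyte markers Il1b and Il6 exceeded 2 times the floor on 1 array each, with a summed signal of 0.05% to 0.43%. Pdgfrb, of pericytes and smooth muscle, did so on 3 arrays, from 0.06% to 0.23%. Pdgfra and Fn1, of fibroblasts, summed to 0.102% to 0.339%, and neither was above the floor on all arrays. Pdgfra had r = -0.762 with Cdh5 (exact permutation p = 0.0460 and adjusted p = 0.831; rho = -0.883 with p = 0.0135), and -0.972 without replicates 5 and 6. Of the adipocyte markers Fabp4 was above it and Pparg was not, with a sum of 0.43% to 0.70%. Lists for nerve and red cells had 0 genes measured. The part of these cells in the signals of the ligands was not tested.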

How the data were processed

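The authors deposited 1 linear ratio per spot and sample, for 223 spots and 7 samples; image analysis and background treatment were not given in the sources used here. Per the labels' protocols, 4 µg of total RNA from cryosections was labelled, so each array has 1 colour. Gene names came from the platform annotation, which names 205 spots for 203 genes. Only 1 of 7 columns lay within 10% of the mean median and total, so values were quantile-normalized over the 223 spots and put on the log2 scale with no pseudocount. Car3 did not vary on that scale and was left out of correlations. The permutation test was checked on simulated data and the normalization against limma 3.58.1 (Python 3.11.15, numpy 2.4.6). Exact permutation tests were two-sided, with Benjamini-Hochberg adjustment over all genes or pairs and a threshold of 0.05. The percent scale is the ratio times 100, the number of arrays limits precision. The described genes and lists were chosen with earlier results of these data known. Genes beyond them were named by rule: the gene with the highest r for each ligand, the 3 highest and the lowest for Cdh5, and vessel genes above the floor. Receptors, Vegfd, Angpt1, Angpt4, Pecam1 and the markers were named from fixed lists after their values were seen.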

Additional observations from a re-analysis of the deposited data

Results flagged for a closer look

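For 17 genes, the described ones, those most like them and Timp2, 34 sets of 7 values were examined, and 8 had 1 sample far from the other 6. Chance does this in about 1 in 20 sets of independent values that follow a normal distribution. These sets share arrays, and ratios to a floor of 1 or 2 digits need not follow that distribution, so the rate may not apply. Divided by the range of all 7 samples, the distance of that sample from its neighbour was 0.743 for Cdh5 over the array floor and 0.724 for Angpt2, both high in replicate 5, where the floor was 0.02%. It was 0.705 for Rb1, 0.667 for Top3a and 0.658 for Ccna1, also over the floor and high in replicate 5. Over the floor it was 0.684 for Thbs3, high in replicate 4, and 0.591 for Pgf, low in replicate 7. On the quantile-normalized scale it was 0.569 for Timp2, low in replicate 7. In replicate 5, Cdh5 read 10.5 times the floor against 2.20 to 4.33 times in the other samples, and Angpt2 14.5 against 1.62 to 5.17. In deposited percent neither gene stood apart in replicate 5.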

How the results depend on the processing

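Cdh5 alone was above the floor with the floor at the 5th or the 20th percentile. The count of 1 became 3 over 1.5 times the floor (Vegfb, Angpt2 and Cdh5), 0 over 3 times, 0 at the lower rounding bound, and 1 to 2 with a replicate left out, 2 without replicate 1. The count of genes that passed against Cdh5, adjusted over the genes set against it, was 0 under every alternative run. At an unadjusted p under 0.05 it was 5 to 91 when all samples and genes were kept. Adjusted over all pairs instead, Angpt2 and Ang passed with Cdh5 in deposited values and scaled to the sum of named spots. The count of pairs was 6 in deposited values, 6 scaled to the sum of named spots and 2 over the floor, where 46.2%, 47.6% and 8.04% of all pairs passed, and 0 with any replicate left out. Leaving out a replicate leaves fewer pairings of samples, so the smallest possible p is larger. No single gene or pair could then pass alone, however high its r. The counts of 0 in those runs therefore do not show a lack of relation. The r of Vegfa with Cdh5 turned to 0.451 as deposited, 0.106 with equal medians, 0.476 scaled to named spots, 0.718 over the floor and 0.0739 with adjoining spots subtracted. That of Vegfb turned to 0.284 with equal medians and 0.642 over the floor. That of Vegfc turned to 0.508 as deposited, 0.524 scaled to named spots and 0.628 over the floor. That of Pgf was -0.846 with equal medians, -0.159 with low values raised to the floor, -0.328 with adjoining spots subtracted and -0.0602 over the floor. With each replicate left out, r with Cdh5 ran from -0.481 to -0.184 for Vegfa, -0.677 to -0.270 for Vegfb, -0.826 to -0.429 for Vegfc, -0.229 to 0.388 for Pgf, 0.507 to 0.793 for Angpt2 and 0.271 to 0.776 for Ang. The r of Vegfb with the floor ran from -0.241 to 0.415, negative without replicate 5. The cause of these turns was not tested. With only genes above the floor, no ligand could be tested. Subtraction of adjoining spots and the rounding bounds were chosen after seeing the data. Values near the floor have 1 or 2 digits, so their ratios to it are coarse. No paired analysis was possible because the samples form 1 group.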

Other observations

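The endothelins Edn2 and Edn3, peptides that constrict vessels, had identical deposited values in all 7 samples, with a mean of 0.0643%, on spots labelled 8I and 8J. Tek and Igfbp3 also had identical values in all samples, with a mean of 0.0786%, on spots labelled 7G and 16E. These 2 pairs were the only identical ones among the 203 genes, and all 4 genes exceeded 2 times the floor on 0 arrays.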
